A study of Homo sapiens with 11 samples.

Results

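The genes described here are 10 that have long been reported as induced by EWS-FLI1 in Ewing sarcoma: NKX2-2, SOX2, ID2, PRKCB, VRK1, STEAP1, XG, CAV1, GSTM4 and PAPPA. They were chosen by name, with earlier results of these data known, and are 10 of 12326 genes tested. All 32 of their probe sets that carry a single gene symbol in the platform annotation were read, and 24 of these passed the 60th percentile on 1 or more arrays. The other 8 were dim on every array: 2 of 6 for PRKCB, 1 of 2 for XG, 1 of 4 for SOX2 and 4 of 11 for PAPPA. A further 2 probe sets list XG or ID2 together with another symbol and were left out. Each gene is given by the most variable of its probe sets that passed, so all 10 were tested.

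Expression was read from 11 Affymetrix HG-U133 Plus 2 arrays. Every group was the A673sh line, A673 Ewing sarcoma cells that carry a doxycycline-inducible shRNA against EWS-FLI1, and every group was transiently transfected. In 4 groups of 2 arrays the transfected plasmid encoded an shRNA directed at FOXO1 (sh-FOXO1) or its scrambled control (sh-scrambled), either without doxycycline, with EWS-FLI1 present, or with 1 µg/ml doxycycline for 48 h, which depletes it. In 3 groups of 1 array, all without doxycycline, the cells received the empty pCDNA3 vector, FLAG-tagged FOXO1 whose AKT phosphorylation sites were mutated (AKT-resistant FOXO1), or FLAG-tagged FOXO1 whose CDK2 phosphorylation sites were mutated (CDK2-resistant FOXO1). All arrays come from 1 cell line. No group received doxycycline without the inducible shRNA, so the knockdown and any effect of doxycycline itself cannot be told apart. The labels do not say that the 2 arrays of a group came from separate cultures, so the p-values measure only the spread between these arrays, which may be technical, and the number of arrays limits their precision.

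EWS-FLI1 is the fusion of EWSR1 with the ETS family transcription factor FLI1 that drives most Ewing sarcomas. Its FLI1 part binds DNA at the ETS core GGAA, and arrays of repeated GGAA act as enhancers for many of the genes it induces, while another large group of genes is held down by it. FOXO1 is a forkhead transcription factor that AKT and CDK2 phosphorylate.

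RefSeq promoter windows of 300 bases, 250 before and 50 after an annotated start (GRCh38.p14), were found for 9 of the 10 genes, 12 windows in all. The 4 printed here belong to XG, which had the largest fall after the knockdown, to NKX2-2 and STEAP1, each measured by 1 probe set, and to PAPPA, which was the gene called after FOXO1 silencing without doxycycline. They read 5′ to 3′ in the direction of the gene, with GGAA or its complement TTCC in capitals and, in PAPPA, TGTTTAC, a sequence of the kind that forkhead factors bind, also in capitals.
XG, chrX:2751790-2752089, plus strand: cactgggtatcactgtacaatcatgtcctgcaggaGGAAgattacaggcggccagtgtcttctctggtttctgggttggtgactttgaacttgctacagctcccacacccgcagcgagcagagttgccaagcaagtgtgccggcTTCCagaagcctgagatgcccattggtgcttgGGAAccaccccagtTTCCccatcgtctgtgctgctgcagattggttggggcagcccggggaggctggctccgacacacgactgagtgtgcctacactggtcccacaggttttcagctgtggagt
NKX2-2, chr20:21522640-21522939, minus strand: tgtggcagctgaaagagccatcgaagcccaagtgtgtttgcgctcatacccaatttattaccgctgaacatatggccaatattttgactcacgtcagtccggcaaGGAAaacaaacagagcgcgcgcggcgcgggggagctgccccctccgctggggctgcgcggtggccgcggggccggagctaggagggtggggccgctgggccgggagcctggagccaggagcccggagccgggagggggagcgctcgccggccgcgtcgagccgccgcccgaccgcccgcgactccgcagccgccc
STEAP1, chr7:90154219-90154518, plus strand: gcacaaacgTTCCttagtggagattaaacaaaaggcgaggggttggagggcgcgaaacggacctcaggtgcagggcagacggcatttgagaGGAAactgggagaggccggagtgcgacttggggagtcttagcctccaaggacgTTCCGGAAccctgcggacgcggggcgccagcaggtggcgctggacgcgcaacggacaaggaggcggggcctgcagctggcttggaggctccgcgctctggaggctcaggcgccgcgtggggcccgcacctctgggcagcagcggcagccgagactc
PAPPA, chr9:116153541-116153840, plus strand: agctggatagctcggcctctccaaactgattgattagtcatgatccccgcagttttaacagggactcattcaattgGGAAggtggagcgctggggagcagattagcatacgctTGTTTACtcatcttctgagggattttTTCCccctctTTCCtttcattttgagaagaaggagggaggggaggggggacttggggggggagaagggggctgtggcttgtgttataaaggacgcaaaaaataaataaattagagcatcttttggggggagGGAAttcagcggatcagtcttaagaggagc

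On both strands, GGAA was present in 9 of these 12 windows, which cover 8 of the 9 genes, and in 95.5% of all 35116 windows of this length. NKX2-2 and CAV1 have more than 1 window, and 1 window of each held no GGAA, nor did that of PRKCB. CCGGAA, which contains GGAA, was found in 2 windows, those of STEAP1 and GSTM4, against 17.2% of all windows. In STEAP1 the matches on the 2 strands overlap, as the run TTCCGGAA shows. GGAAGGAA, a pair of GGAA units, was found in 2 windows, both of CAV1 and overlapping, against 3.67% of all windows. TGTTTAC was found in 1 window, that of PAPPA, against 3.42%. A match is a description of these letters, and the windows do not reach distal repeats.

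Array medians of the deposited log2 values ran from 5.10 to 5.17. The 3 single arrays had higher upper quartiles, 7.09 to 7.12, than the 8 shRNA arrays, 6.94 to 7.01. CD99, FLI1 and NKX2-2, which mark Ewing sarcoma cells, lay above the 60th percentile on all 11 arrays. Of the markers read for blood, endothelial and epithelial cells, PTPRC, CD14, CDH5, EPCAM and CDH1 lay below the median on all 11. CD3E, VWF and KRT5 never reached the 60th percentile, but lay below the median on only 4, 0 and 1 arrays. PECAM1 lay between 5.79 and 6.05, above that percentile on all 11 arrays. FLI1 was 8.84 and 8.71 in sh-scrambled cells without doxycycline and 6.92 and 6.93 with it, and 8.84 and 8.56 against 7.17 and 7.25 in sh-FOXO1 cells. Its log2 fold changes were -1.85 and -1.49 (limma, adjusted p = 1.59e-06 and 6.7e-06), with no overlap between arrays with and without doxycycline. Its other 2 probe sets that passed gave less, -1.18 and -1.19 for one and -0.59 and -0.71, inside the limit of 1, for the other. FOXO1 was 5.86 and 5.81 in sh-scrambled against 4.97 and 4.80 in sh-FOXO1 cells without doxycycline, and 7.35 and 7.04 against 5.76 and 5.75 with it. After the knockdown in sh-scrambled cells FOXO1 rose by 1.36 (limma, adjusted p = 1.62e-05). In sh-FOXO1 cells the rise was 0.86 (adjusted p = 0.000257), inside the limit of 1. FOXO1 fell after the silencing, with log2 fold changes of -0.95 and -1.44 (limma, adjusted p = 0.000745 and 0.000136). On this probe set, FOXO1 in sh-FOXO1 cells with doxycycline thus lay near its level in sh-scrambled cells without it. On the single arrays FOXO1 was 5.84 with empty vector, 8.30 with AKT-resistant and 7.06 with CDK2-resistant FOXO1. In that order, its other 2 probe sets that passed gave 5.88, 5.71 and 5.61 for one and 3.97, 8.84 and 8.11 for the other. The former rose by 1.85 after the knockdown in both kinds of cells. It was 6.18 and 6.38 in sh-FOXO1 cells with doxycycline, above 5.87 and 6.02 in sh-scrambled cells without it. EWSR1 was not called after the knockdown: its most variable probe set gave 0.67 and 0.09, and the other 2 that passed, both brighter, gave -0.13 and -0.04 and -0.10 and -0.15.

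The first comparison asks what happens to these genes when EWS-FLI1 is depleted in sh-scrambled cells. A gene was called where limma's adjusted p, over all genes tested, was under 0.05 and the log2 fold change was past 1 (2-fold). Of the 10 genes, 7 fell (NKX2-2, SOX2, PRKCB, VRK1, STEAP1, XG and GSTM4) and none rose, while 7.49% of all genes tested were called lower. ID2, CAV1 and PAPPA lay below 0 but inside the fold change limit. The median log2 fold change was -1.78, beside -0.06 over all genes. By adjusted p alone all 10 were lower, as were 35% of all genes. In bulk RNA, fewer cells that express a gene and less RNA per cell cannot be told apart.

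**Figure D1:**
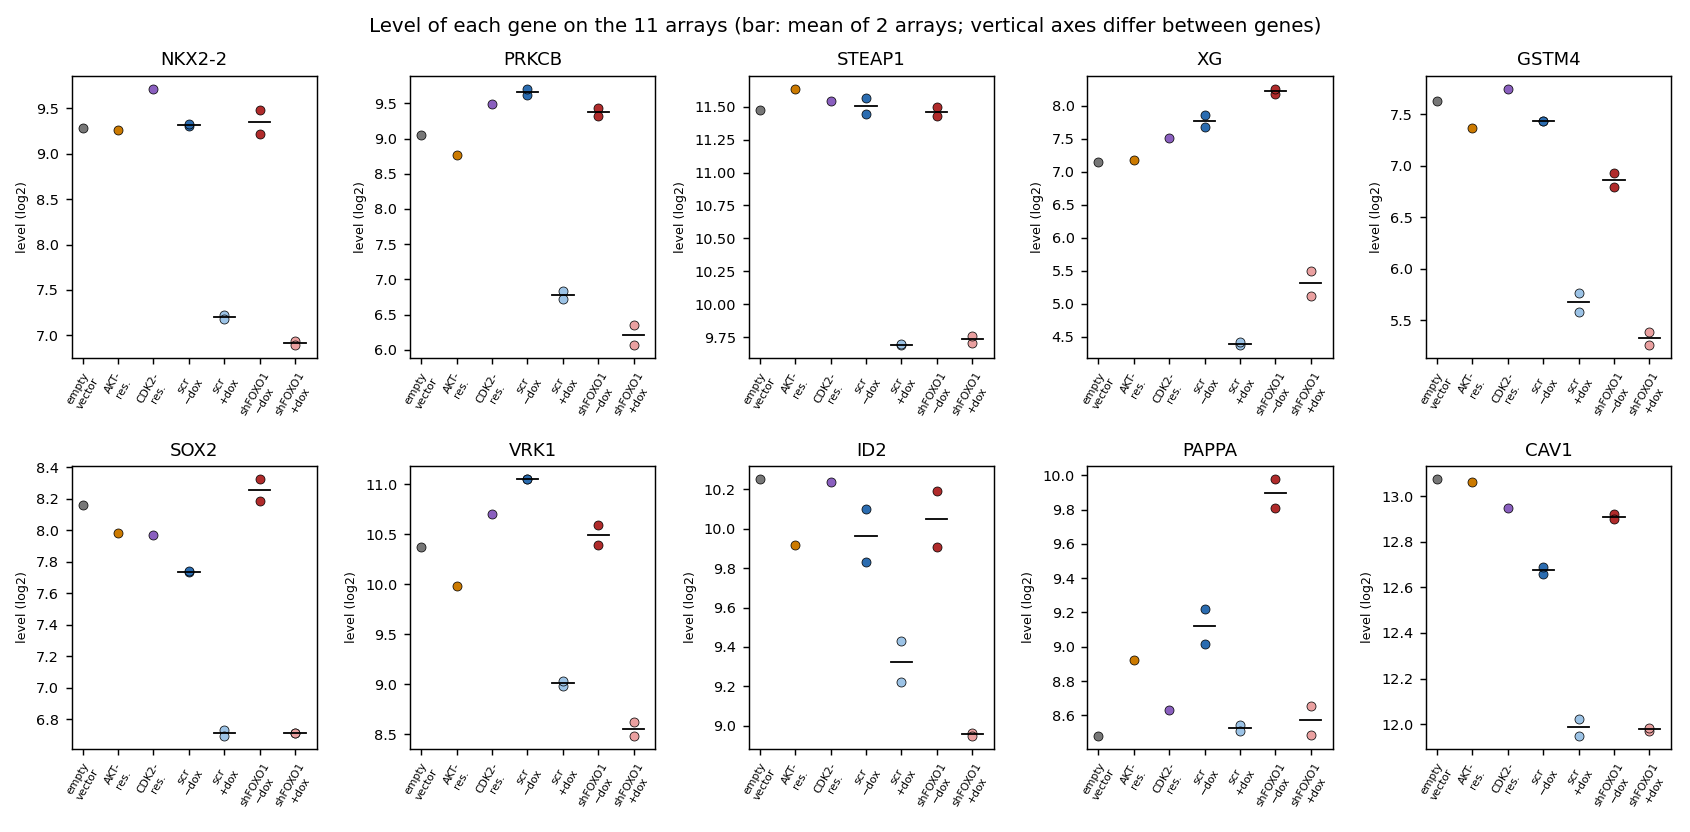
Level (log2, as deposited) of the 10 genes on all 11 arrays, 1 panel per gene, with a point per array and a bar at the mean of each group of 2. The vertical axes differ between panels; in all 10 genes, both arrays with doxycycline lie below both arrays without it, whichever shRNA the cells received.

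Of the transcription regulators, NKX2-2, a homeobox factor required for Ewing sarcoma cell transformation, was 9.30 and 9.32 without doxycycline and 7.23 and 7.18 with it in sh-scrambled cells. The sh-FOXO1 arrays gave 9.48 and 9.22 against 6.94 and 6.89. The arrays with and without doxycycline were far apart in both. NKX2-2 fell in both, with log2 fold changes of -2.11 and -2.43 (SE 0.09 each; limma, adjusted p = 4.78e-07 and 3.07e-07), 4.31-fold and 5.39-fold.

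SOX2, a factor of stem and neural progenitor cells, was 7.73 and 7.74 without and 6.73 and 6.70 with doxycycline in sh-scrambled cells. Those of sh-FOXO1 cells were 8.18 and 8.32 against 6.71 and 6.71. With doxycycline the 4 arrays lay together, and without it the sh-FOXO1 arrays were the higher ones. SOX2 fell, with log2 fold changes of -1.02 and -1.54 (limma, adjusted p = 6.79e-06 and 8.28e-07). In sh-scrambled cells it lay just past the fold change limit. Of its 3 probe sets that passed the filter, 2 fell there and the dimmest gave -0.64, while all 3 fell in sh-FOXO1 cells. The dimmest probe set lay below the 60th percentile on every array with doxycycline, at 4.98 to 5.25. It passed the filter only through arrays without doxycycline, the higher side of its fall in sh-FOXO1 cells, at -1.18.

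ID2, which binds basic helix-loop-helix factors and blocks their attachment to DNA, was 10.10 and 9.83 without and 9.43 and 9.22 with doxycycline in sh-scrambled cells. Its sh-FOXO1 values were 10.19 and 9.91 against 8.96 and 8.95. The groups did not overlap, but the 2 arrays of most groups were further apart than for the other genes. The log2 fold change was -0.64 in sh-scrambled cells, inside the limit (limma, adjusted p = 0.0026), and ID2 fell by 1.09 in sh-FOXO1 cells (adjusted p = 0.000142). That call rests on the probe set: the other one that passed gave -0.74. It was also lost without the first sh-FOXO1 array without doxycycline, at -0.95.

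Both kinases fell in both kinds of cells. PRKCB, protein kinase C beta, was 9.62 and 9.71 without and 6.83 and 6.73 with doxycycline in sh-scrambled cells. Cells with sh-FOXO1 had it at 9.43 and 9.33 against 6.07 and 6.35. The log2 fold changes were -2.88 and -3.17, falls of 7.38-fold and 9.02-fold (limma, adjusted p = 1.84e-07 and 1.68e-07). All 4 of its probe sets that passed were called in both, from -2.88 to -1.21 in sh-scrambled and from -3.17 to -1.02 in sh-FOXO1 cells. The one with the smallest falls lay below the 60th percentile on every array with doxycycline. It passed the filter only through arrays without doxycycline, the higher side of these falls. The 2 probe sets dim on every array gave -0.83 and -0.12 in sh-scrambled and -0.56 and -0.20 in sh-FOXO1 cells.

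VRK1, a nuclear kinase that phosphorylates histones and other chromatin proteins, was 11.05 and 11.05 without and 8.99 and 9.03 with doxycycline in sh-scrambled cells. The sh-FOXO1 cells gave 10.39 and 10.59 against 8.49 and 8.62. The sh-FOXO1 arrays lay below the sh-scrambled arrays in either state. VRK1 fell, at -2.04 and -1.94 on the log2 scale (limma, adjusted p = 4.47e-07 and 7.29e-07).

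Among the genes of membrane proteins, XG, which encodes the Xg blood group antigen, had the largest change of the 10 in sh-scrambled cells. It was 7.68 and 7.87 without and 4.37 and 4.42 with doxycycline there, and 8.18 and 8.26 against 5.12 and 5.49 in sh-FOXO1 cells. It fell, with log2 fold changes of -3.38 and -2.91, 10.4-fold and 7.51-fold (limma, adjusted p = 2.04e-07 and 5.61e-07). XG lay below the 60th percentile on every array with doxycycline. It thus passed the filter only through arrays without doxycycline, the higher side of both falls. The sh-scrambled arrays with doxycycline lay little above the lower quartile of their array (4.08 and 4.07), where array values flatten, so the fold change there may be understated.

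STEAP1, a metalloreductase-related membrane protein of the cell surface, had nearly the same values in both kinds of cells. It was 11.44 and 11.56 without and 9.69 and 9.70 with doxycycline in sh-scrambled cells, and 11.50 and 11.43 against 9.71 and 9.76 in sh-FOXO1 cells. STEAP1 fell, at -1.81 and -1.73 on the log2 scale (limma, adjusted p = 3.1e-07 and 5.06e-07), and the 95% interval of the difference between these falls was -0.16 to 0.32.

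CAV1, the main coat protein of caveolae, was not called in either kind of cells. It was 12.66 and 12.69 without and 12.02 and 11.95 with doxycycline in sh-scrambled cells, and 12.92 and 12.90 against 11.97 and 11.99 in sh-FOXO1 cells. The arrays of each group lay within 0.1 of each other and the groups did not overlap. The log2 fold changes were -0.69 and -0.93, inside the limit of 1 (limma, adjusted p = 3.94e-05 and 7.96e-06), and those of its other probe set were -0.49 and -0.62.

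GSTM4, a glutathione transferase of the mu class, was 7.43 and 7.44 without and 5.77 and 5.58 with doxycycline in sh-scrambled cells. For sh-FOXO1 cells the values were 6.80 and 6.93 against 5.26 and 5.39. GSTM4 fell, with log2 fold changes of -1.76 and -1.54 (limma, adjusted p = 1.19e-06 and 3e-06). On this probe set the sh-FOXO1 arrays were lower in either state. The second GSTM4 probe set gave -1.29 and -0.92, the latter inside the limit. GSTM4 lies on chromosome 1 at 109656099 to 109667727 (GRCh38.p14), 0.3 kb from GSTM2 and 20.1 kb from GSTM1. Mu class genes are alike in sequence and can share hybridisation, so the split of signal between them is uncertain.

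PAPPA, a secreted metalloproteinase that cleaves IGF-binding proteins and so frees IGF, was 9.02 and 9.22 without and 8.54 and 8.51 with doxycycline in sh-scrambled cells. In sh-FOXO1 cells it was 9.98 and 9.81 against 8.49 and 8.66. The arrays with doxycycline lay together in both kinds of cells, and the sh-FOXO1 arrays without it were the highest of the 8, an order also seen for SOX2 and CAV1. The log2 fold change was -0.60 in sh-scrambled cells, inside the limit (limma, adjusted p = 0.00108), and PAPPA fell by 1.32 in sh-FOXO1 cells (adjusted p = 1.25e-05).

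**Figure D2:**
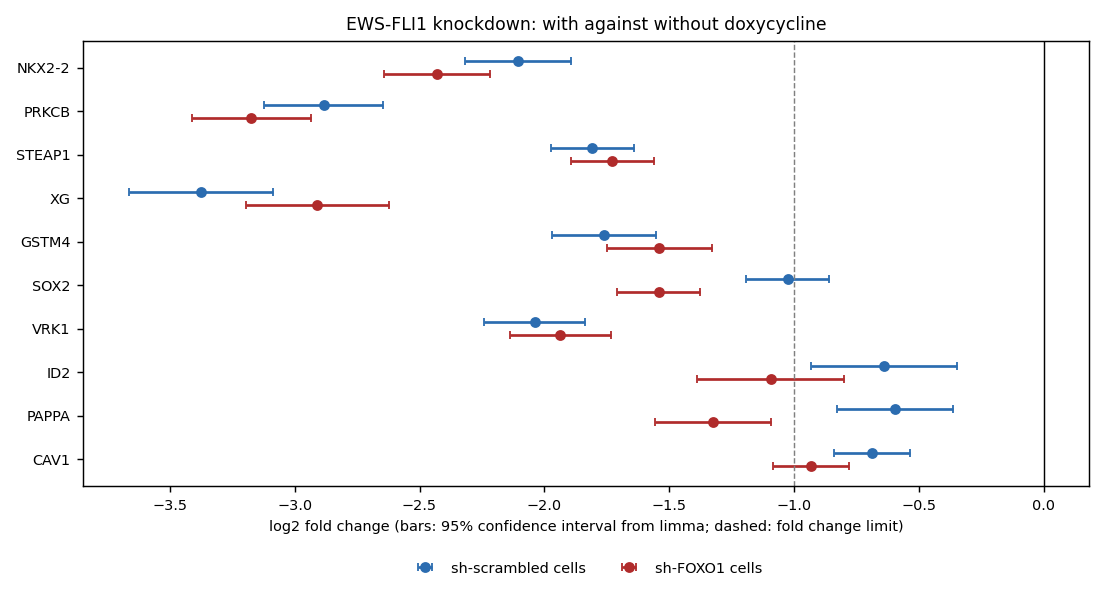
Log2 fold change of the 10 genes with against without doxycycline in sh-scrambled and sh-FOXO1 cells, with 95% confidence intervals from limma. The dashed line marks the limit of -1, which 7 genes passed with sh-scrambled and 9 with sh-FOXO1.

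The comparison was repeated with other arrays on both sides in sh-FOXO1 cells, where 9 of the 10 genes fell, all but CAV1, and none rose, while 6.38% of all genes tested were called lower. The median log2 fold change of the 10 was -1.63, beside -0.07 over all genes. By adjusted p alone all 10 were again lower, as were 33.5% of all genes. The sh-FOXO1 and sh-scrambled knockdown comparisons share no array.

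The genes were compared over all 7 groups. With each gene centred on its mean over the 7 groups, the root mean square difference of group means was smallest for ID2 and CAV1, at 0.17, and largest for PRKCB and PAPPA, at 1.14. The measure is not scaled, so it grows with the size of the changes. For XG the most alike gene of all those tested was JPH1, at 0.25, and then ABHD3 and CYP4F22. For PRKCB it was TMEM71, at 0.22, followed by ZDHHC21 and ADGRG2. For NKX2-2 it was STEAP2, at 0.07, followed by OTX2 and SLAIN1. These likenesses are over 7 group means from 11 arrays and carry no test.

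Of 26 relatives listed by family or position, 19 were tested, and in sh-scrambled cells 2 fell and 2 rose, 10.5% each way, near the 7.49% lower and 8.1% higher of all genes tested, so the count is no result about the relatives. STEAP2, 46.9 kb from STEAP1 on chromosome 7 and also of the metalloreductase family, was 9.13 and 9.36 without and 7.05 and 7.07 with doxycycline, and fell by 2.19 (limma, adjusted p = 4.39e-07). CAV2, 16.5 kb from CAV1 and its partner in caveolae, fell by 1.74 (adjusted p = 1.39e-06), past the limit that CAV1 did not reach. PRKCA, protein kinase C alpha, rose by 1.61 (adjusted p = 3.32e-06), while PRKCB fell. ID1 rose by 1.08 (adjusted p = 3.34e-06). In sh-FOXO1 cells STEAP2, CAV2 and STEAP3 fell, at -2.51, -1.63 and -1.45, and PRKCA rose by 1.80, beside 6.38% lower and 7.27% higher of all genes. STEAP3 lay below the 60th percentile on the arrays with doxycycline and on the sh-scrambled arrays without it, at 5.31 and 5.27. Of the shRNA arrays, it passed the filter only through sh-FOXO1 without doxycycline, at 6.07 and 5.72. That group is the higher side of this fall. GSTM1 and GSTM2 had log2 fold changes of -0.57 and -0.55 in sh-scrambled cells, and CD99, 10.7 kb from XG on chromosome X, had -0.40, all inside the limit. The median over the 19 relatives was -0.24 in sh-scrambled cells.

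A second list of 28 other genes reported as induced by EWS-FLI1 was set beside them, of which 27 were tested. In sh-scrambled cells 14 fell, 2 rose and 11 were not called, with a median log2 fold change of -1.15, beside 7.49% lower and 8.1% higher of all genes. The 2 rises are 7.41% of the list, near that share. The largest falls were -2.83 for PPP1R1A, an inhibitor of protein phosphatases, -2.53 for DKK2, a Wnt modulator, -2.52 for the neuropeptide Y receptor NPY1R and -2.43 for IL1RAP, the interleukin 1 receptor accessory protein (limma, adjusted p from 1.7e-07 to 7.48e-07). The 2 that rose were TNC, the matrix protein tenascin C, by 4.06 and UPP1, uridine phosphorylase, by 2.36 (adjusted p = 1.41e-06 and 3.81e-07), against the direction the list's name gives. With sh-FOXO1 16 fell and the same 2 rose, TNC by 1.86 and UPP1 by 2.12.

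The next comparison asks what FOXO1 silencing does to these genes with EWS-FLI1 present, sh-FOXO1 against sh-scrambled cells without doxycycline. These arrays are the same as those on the higher side of the knockdown comparisons. The limit here was a log2 fold change past 0.7 (1.62-fold) with limma's adjusted p under 0.05, which 5.78% of all genes tested passed in either direction. Of the 10 genes, 1 was called, PAPPA, which rose by 0.77 (95% interval 0.54 to 1.01; adjusted p = 0.00113), 1.71-fold. The PAPPA arrays were 9.98 and 9.81 in sh-FOXO1 and 9.02 and 9.22 in sh-scrambled cells, with no overlap. The call was lost, with values of 0.67 and 0.69, without the first sh-scrambled or the first sh-FOXO1 array without doxycycline.

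The probe sets of PAPPA gave the same picture. All 7 that passed the filter on dim signal were called higher in sh-FOXO1 cells without doxycycline, by 0.70 to 0.90. They measure 1 gene on the same arrays and are not replicates. After the knockdown in sh-scrambled cells they ran from -0.65 to -0.33 and none was called, and in sh-FOXO1 cells all 7 fell, from -1.46 to -1.12.

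**Figure D3:**
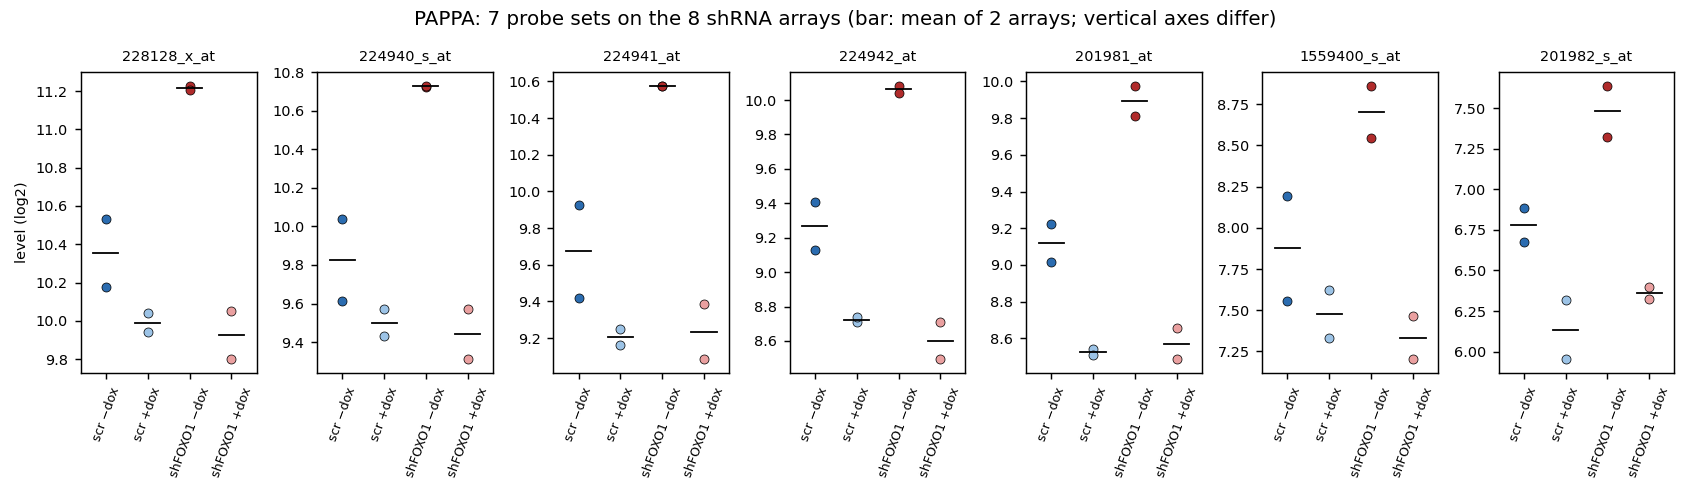
Level (log2) of the 7 PAPPA probe sets that passed the filter, on the 8 shRNA arrays, with a point per array and a bar at the mean of each group of 2; the vertical axes differ. In every panel the 2 sh-FOXO1 arrays without doxycycline are the highest of the 8, by 0.70 to 0.90 over the sh-scrambled arrays without doxycycline on average.

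Smaller differences passed the adjusted p but not the fold change limit. SOX2 was higher in sh-FOXO1 cells without doxycycline at 0.52 (adjusted p = 0.00147), XG at 0.45 (adjusted p = 0.0283) and CAV1 at 0.24 (adjusted p = 0.0279). GSTM4, at -0.57 (adjusted p = 0.00273), and VRK1, at -0.56 (adjusted p = 0.0026), were lower. All 5 had no overlap between the 4 arrays. PRKCB was at -0.28 (adjusted p = 0.0748), and NKX2-2, STEAP1 and ID2 at 0.04, -0.04 and 0.09, with 95% intervals of -0.18 to 0.25, -0.21 to 0.13 and -0.21 to 0.38.

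With doxycycline, where endogenous FOXO1 was higher in sh-scrambled cells, 1 of the 10 genes was called after FOXO1 silencing, while 5.45% of all genes tested were called in either direction. It was XG, at 5.12 and 5.49 in sh-FOXO1 and 4.37 and 4.42 in sh-scrambled cells, which rose by 0.91 (95% interval 0.63 to 1.20; limma, adjusted p = 0.00143), 1.88-fold. Both arrays of each group lie in the dim range of the array. The call was kept in each of the 14 alternatives, with values of 0.73 to 1.10. Most of these alternatives keep the same probe set, arrays and values of these groups, so their log2 fold change could not differ. FLI1 itself was at 7.17 and 7.25 in these sh-FOXO1 arrays and 6.92 and 6.93 in the sh-scrambled ones, a log2 difference of 0.29 (adjusted p = 0.0653), while its other 2 probe sets that passed gave 0.00 and -0.03. Its part in the XG result was not tested.

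PRKCB was lower in sh-FOXO1 cells with doxycycline at -0.57 (adjusted p = 0.00528), inside the limit, and reached it at -0.71 without the second sh-FOXO1 array with doxycycline. Its other 3 probe sets that passed gave -0.31 to 0.07, so this value rests on 1 probe set. VRK1 was at -0.46 (adjusted p = 0.00682) and GSTM4 at -0.35 (adjusted p = 0.0241), the same sign as without doxycycline. The second GSTM4 probe set gave -0.07 with doxycycline and -0.44 without it. Its mu class relatives GSTM1 and GSTM2 were also lower in sh-FOXO1 cells, inside the limit. They were at -0.51 and -0.57 with doxycycline and at -0.53 and -0.56 without it. Of the 4 genes with higher values in sh-FOXO1 cells without doxycycline by adjusted p, XG was higher with it too, as given above. The other 3, SOX2, PAPPA and CAV1, were at 0.00, 0.05 and -0.01, with 95% intervals of -0.17 to 0.16, -0.19 to 0.28 and -0.16 to 0.14.

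**Figure D4:**
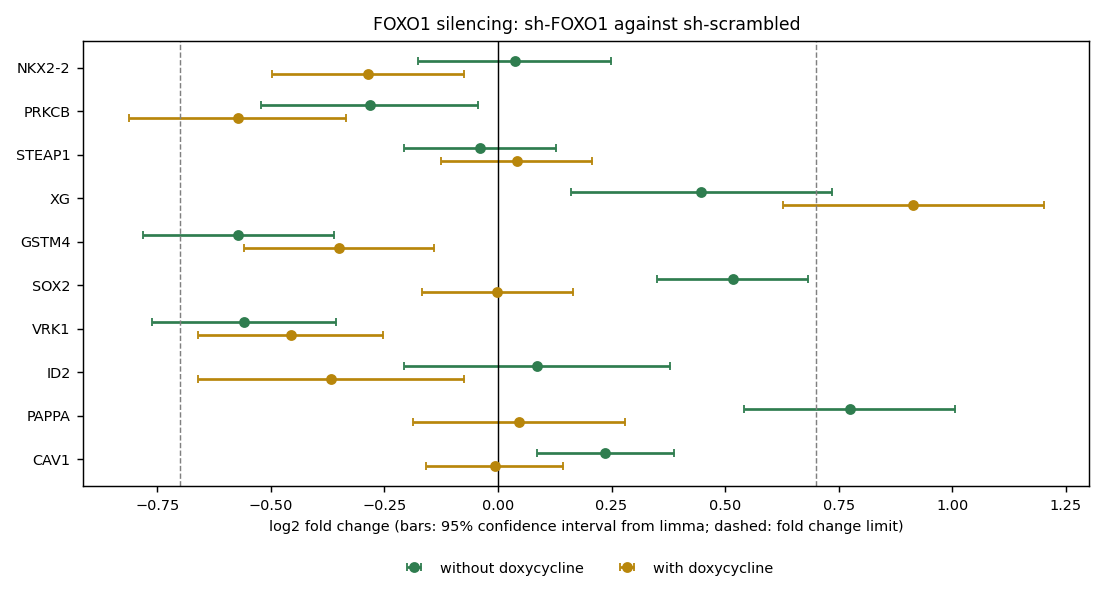
Log2 fold change of the 10 genes in sh-FOXO1 against sh-scrambled cells, without and with doxycycline, with 95% confidence intervals from limma; dashed lines mark 0.7 either way. PAPPA passes the limit without doxycycline at 0.77 and XG with it at 0.91.

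Whether the knockdown acts differently with the 2 shRNAs was tested as the difference of the knockdown effects, sh-FOXO1 minus sh-scrambled. PAPPA was called, with -0.73 (95% interval -1.06 to -0.40; limma, adjusted p = 0.0213), while 3.91% of all genes tested were called in either direction. Of its 7 probe sets 4 were called, over a range of -0.97 to -0.48. The PAPPA call was lost, at values of -0.75 to -0.63 with adjusted p from 0.0365 to 0.0874, when 1 of 5 arrays was left out: either sh-scrambled array with doxycycline, or the first array of another shRNA group. SOX2 had -0.52 (adjusted p = 0.0216), inside the limit of 0.7, and its other 2 probe sets that passed -0.46 and -0.54. The other 8 genes had adjusted p values from 0.164 to 0.71, with values from -0.45 for ID2 to 0.47 for XG.

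Among the 19 relatives tested, FOXO1 silencing gave the same 2 calls with and without doxycycline, 1 higher and 1 lower. Of all genes tested, 5.78% were called without and 5.45% with doxycycline. The arrays of these comparisons are separate, but the fit gives both the same estimate of the spread. VRK3, a member of the VRK family, rose by 0.90 without and 0.91 with doxycycline, while VRK1 was at -0.56 and -0.46. VRK3 was dim: without doxycycline it was 5.35 and 5.53 in sh-FOXO1 and 4.53 and 4.56 in sh-scrambled cells, below the 60th percentile on all 4 arrays, and of the shRNA arrays it reached that percentile on the sh-FOXO1 arrays with doxycycline alone, at 5.82 and 5.83. Among these arrays VRK3 thus passed the filter only through the group where it was highest, so its repeated call is no separate evidence. ID3 fell by 0.85 without and by 0.81 with doxycycline. Of the 27 other reported targets, 4 rose and 0 fell without doxycycline, beside 3.45% higher and 2.33% lower of all genes, and 3 rose and 2 fell with it, beside 3.08% and 2.37%.

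The last comparison sets nuclear FOXO1 against empty vector, with EWS-FLI1 present. Each group had 1 array, so these differences have no replicate check and no test. With AKT-resistant FOXO1, 0 of the 10 genes differed from empty vector by more than 0.7 on the log2 scale, as 3.2% of all genes tested did, and with CDK2-resistant FOXO1 again 0, beside 3.27% of all genes. The values ran from -0.39 for VRK1 to 0.44 for PAPPA with AKT-resistant and from -0.19 for SOX2 to 0.44 for PRKCB with CDK2-resistant FOXO1.

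VRK1 was 10.38 with empty vector, 9.99 with AKT-resistant and 10.70 with CDK2-resistant FOXO1. PRKCB was 9.05, 8.76 and 9.49 in that order. In both, AKT-resistant FOXO1 had the lowest and CDK2-resistant FOXO1 the highest of the 3 arrays, and these were the 2 genes furthest apart between the mutants, by -0.72 and -0.73. NKX2-2 was 9.28, 9.26 and 9.71, and PAPPA 8.48, 8.92 and 8.63. One SOX2 probe set that does not represent the gene was past the limit with AKT-resistant FOXO1, at -0.72.

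The control arrays set the scale of such differences. Without doxycycline, the empty vector array differed from the mean of the 2 sh-scrambled arrays by -0.67 for VRK1, -0.64 for PAPPA, -0.62 for XG, -0.61 for PRKCB, 0.42 for SOX2 and 0.40 for CAV1. These exceed most of the differences between mutant and empty vector. With the mean of all 3 control arrays in place of empty vector, VRK1 passed the limit with AKT-resistant FOXO1, at -0.84, and PRKCB came to -0.69. Among the relatives, CAV2, at 0.74, and ID1, at -0.77, were past the limit with CDK2-resistant FOXO1 against empty vector. Against the mean of the 3 control arrays they were at 0.30 and 0.01. The empty vector array differed from the sh-scrambled mean by -0.66 for CAV2 and 1.17 for ID1. Against the 3 control arrays, STEAP3 passed the limit with CDK2-resistant FOXO1, at 1.11, beside 0.48 against empty vector. With AKT-resistant FOXO1, STEAP3, VRK3, PRKCA and CAV2 did, at 0.84, 0.92, 0.82 and -0.77. Against empty vector they were inside the limit, at 0.20, 0.32, 0.57 and -0.33. The empty vector array differed from the sh-scrambled mean by 0.95 for STEAP3, 0.90 for VRK3 and 0.39 for PRKCA. The share of all genes past the limit against the 3 control arrays was not computed.

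**Figure D5:**
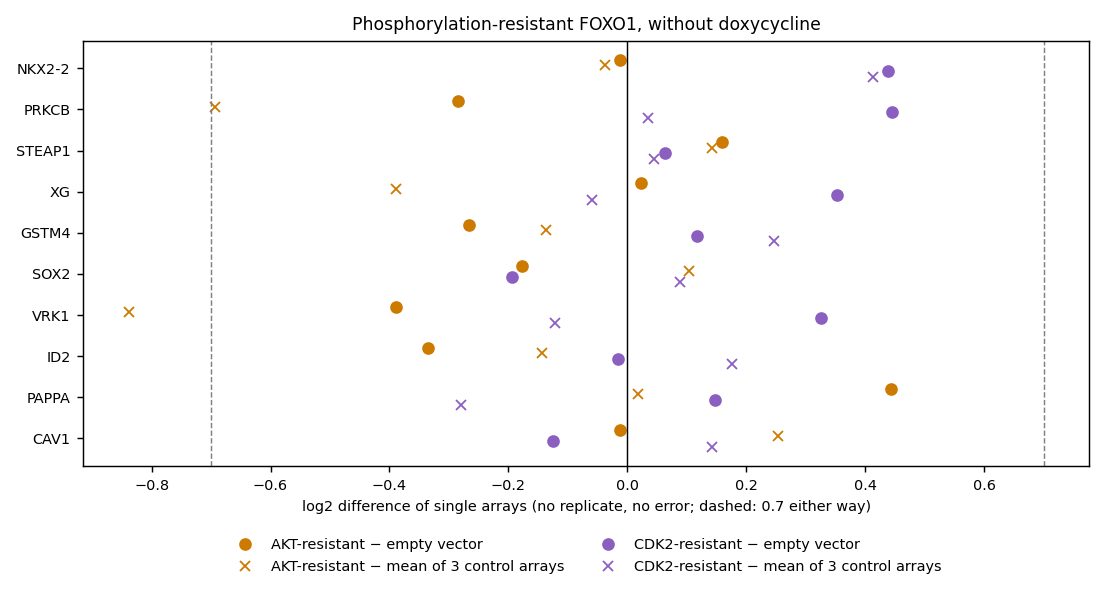
Log2 difference of each mutant FOXO1 array from the empty vector array (circles) and from the mean of 3 control arrays without doxycycline (crosses) for the 10 genes; there is no replicate and no error bar. Only VRK1 with AKT-resistant FOXO1 against the 3 control arrays lies past the dashed limit of 0.7, at -0.84.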

How the data were processed

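RNA of A673sh cells was measured on 11 arrays, and groups and replicate numbers were taken from the sample labels. The authors deposited log2 values of 54675 probe sets for each array, already summarized and normalized. Their algorithm was not given in the sources used, and log2 was inferred from the range of 2.60 to 14.6. Normalization to a common distribution can hide a shift of all genes.

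Of the probe sets, 41097 had 1 symbol, 1801 several and 11777 none. Probe sets below the 60th percentile of every array were dropped, and the most variable of the rest (interquartile range across arrays) stood for its gene. Group means of the 7 groups were fitted in limma 3.58.1 under R 4.3.3 to 12326 genes with empirical Bayes and Benjamini-Hochberg adjustment over all of them, with 4 residual and 3.90 prior degrees of freedom. A second fit over all probe sets gave the probe set values. The single arrays were compared by difference alone. All 10 genes are named, with FLI1 and FOXO1 as checks. Of the relatives every called one is named. Of the other reported targets, the 4 largest falls and every rise after the knockdown in sh-scrambled cells are named. After FOXO1 silencing those targets are given by counts, and their single-array differences are left out. Alternatives were another probe set, other filters, quantile normalization, fewer arrays, a replicate block, another control and leaving out each shRNA array. The fit was tested on simulated data. The members and lists were chosen with earlier results of these data known.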

Additional observations from a re-analysis of the deposited data

Results flagged for a closer look

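The effect of the EWS-FLI1 knockdown on PAPPA differed between sh-FOXO1 and sh-scrambled cells by -0.73 on the log2 scale (limma interaction, adjusted p = 0.0213), with log2 fold changes of -1.32 and -0.60 in the respective cells. The 4 arrays with doxycycline lay between 8.49 and 8.66, and the sh-FOXO1 arrays without it, at 9.98 and 9.81, were the highest of the 8 shRNA arrays. Of all genes tested, 3.91% were called in this interaction. The PAPPA call was lost when certain single arrays were left out, as given above. It shares its arrays with the PAPPA call after FOXO1 silencing without doxycycline, so it is not a separate result.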

How the results depend on the processing

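The counts of 7 and 9 genes called lower after the knockdown held in the 14 alternatives run for each, except for ID2 in sh-FOXO1 cells, where the second count was 8 with the brightest probe set per gene and without the first sh-FOXO1 array without doxycycline. Leaving out 1 shRNA array at a time, the number called after FOXO1 silencing with doxycycline ran from 1 to 2, after FOXO1 silencing without doxycycline from 0 to 1, and in the interaction from 0 to 1. Where this left a group with 1 array, that array was assumed to vary like the others. With the mean of empty vector and the 2 sh-scrambled arrays as control, 1 gene passed the limit with AKT-resistant FOXO1, in place of 0. The causes were not tested. No called value reversed. Uncalled values changed sign in 14 cases over 8 of the 50 member values tested, the largest being PRKCB after FOXO1 silencing with doxycycline, from -0.57 to 0.07 with the brightest probe set. Same-numbered arrays deviated together (r of the differences between arrays 1 and 2 of 0.44 to 0.62 across genes), but with 2 numbers that the labels tie to no batch they share only a number. When the number entered as a replicate block the counts were 7, 9, 1, 1 and 1, as without it. With 2 arrays per group, dim genes such as XG with doxycycline are the least certain.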
